A study of Mus musculus with 24 samples.

Results

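Fc receptor genes and signature genes of mast cells and basophils, 9 in all, were followed in splenic dendritic cells (DCs) of mouse pups. They are the IgE receptor chains Fcer1a, Ms4a2 and Fcer1g, the IgG receptors Fcgr1, Fcgr2b and Fcgr3, the granule proteases Mcpt8 and Cpa3, and Hdc, the histamine-forming enzyme. The genes were listed by name, and a probe set belonged to them when its only gene symbol was one of the 9. All 9 were found, with 13 of the 22626 probe sets tested (9 of 12393 genes). Hdc had 2 probe sets, Fcgr2b had 4 and every other gene had 1. The RNA came from CD11c+ spleen cells of BALB/c pups and was hybridised to 24 Affymetrix Mouse430A 2.0 arrays. Asthma-at-risk pups were born to females sensitised and challenged with ovalbumin (OVA), and normal pups to control females. Stimulated pups had received 5 µg of OVA with 1 mg of alum, an aluminium adjuvant, on day 3 by the sample labels, whereas the study's methods name the following day. Naïve pups had received no allergen. All DCs were harvested on day 14. Set 1 held 4 stimulated at-risk, 4 stimulated normal, 4 naïve at-risk and 3 naïve normal arrays. Set 2, whose RNA the methods give as NuGEN amplified, held 5 stimulated at-risk and 4 stimulated normal arrays.

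The high-affinity IgE receptor of mouse mast cells and basophils is built from an IgE-binding alpha chain (Fcer1a), a membrane-spanning beta chain (Ms4a2) and a signalling gamma chain (Fcer1g), and crosslinking by allergen releases stored granules. The same gamma chain carries the signal of the activating IgG receptors Fcgr1 (CD64) and Fcgr3 (CD16) in myeloid cells, and Fcgr2b (CD32B) is the inhibitory receptor for IgG. Mcpt8 is a basophil granule protease, Cpa3 is a carboxypeptidase of mast cell and basophil granules, and Hdc makes histamine from histidine.

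Values are log2 of the deposited intensity. A probe set was called changed where limma's adjusted p (Benjamini-Hochberg) did not exceed 0.05 and the fold was at least 1.25. The array medians lay between 8.09 and 8.22, and each array's lower quartile between 5.00 and 5.09. Itgax, which encodes CD11c, lay between 12.63 and 13.10 on all arrays, and the class II gene H2-Aa between 13.84 and 14.14. Other genes of a list of 16 dendritic cell markers were called. In normal pups Zbtb46 (0.48) and Xcr1 (0.80) rose and Ccr7 (-0.48) fell with allergen, where 11.5% of all probe sets were called. In Set 2 Bst2 (-0.66) and Tcf4 (-0.47) were lower in stimulated at-risk DCs, where 4.62% were called. Bst2 was also called in the difference between the sets, and no marker in the other comparisons. The methods call the arrays biological replicates but name no number of pups for each, so that p-values measure the spread between arrays, whose number limits the precision. The sets were preprocessed separately, so levels are compared only within a set. Arrays are named by the AF number in their labels, and the values of a group follow these numbers (stimulated at-risk from AF88, stimulated normal from AF84, naïve at-risk from AF80 and naïve normal AF76, AF77 and AF79 in Set 1, and stimulated at-risk from AF123 and stimulated normal from AF118 in Set 2). Naïve normal DCs had the fewest arrays, and AF79 stood low for several of the genes below and high for Fcer1g. In bulk RNA, fewer cells of a type and less RNA per cell cannot be told apart.

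The genes fell into a bright and a dim part by their probe sets. Fcer1g lay between 12.36 and 13.01 over the 24 arrays, Fcgr3 between 11.56 and 12.42, the main Fcgr2b probe set between 11.35 and 12.10 and Fcgr1 between 9.71 and 10.91, above the array median on all 24 arrays. Hdc ranged from 7.45 to 10.05 and was above the array median on 13 arrays. Mcpt8 ranged from 5.83 to 8.03 and Cpa3 from 4.69 to 6.21, with Cpa3 below the lower quartile on 7 arrays. The other chains of the IgE receptor were at the dim end, Fcer1a between 3.55 and 4.06 and Ms4a2 between 3.61 and 4.11, and both were below the lower quartile on all 24 arrays. The pooled SD between arrays of a group was 0.05 for Fcer1g, 0.34 for Hdc and 0.53 for Mcpt8, beside a median of 0.14 over all probe sets.

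**Figure D1:**
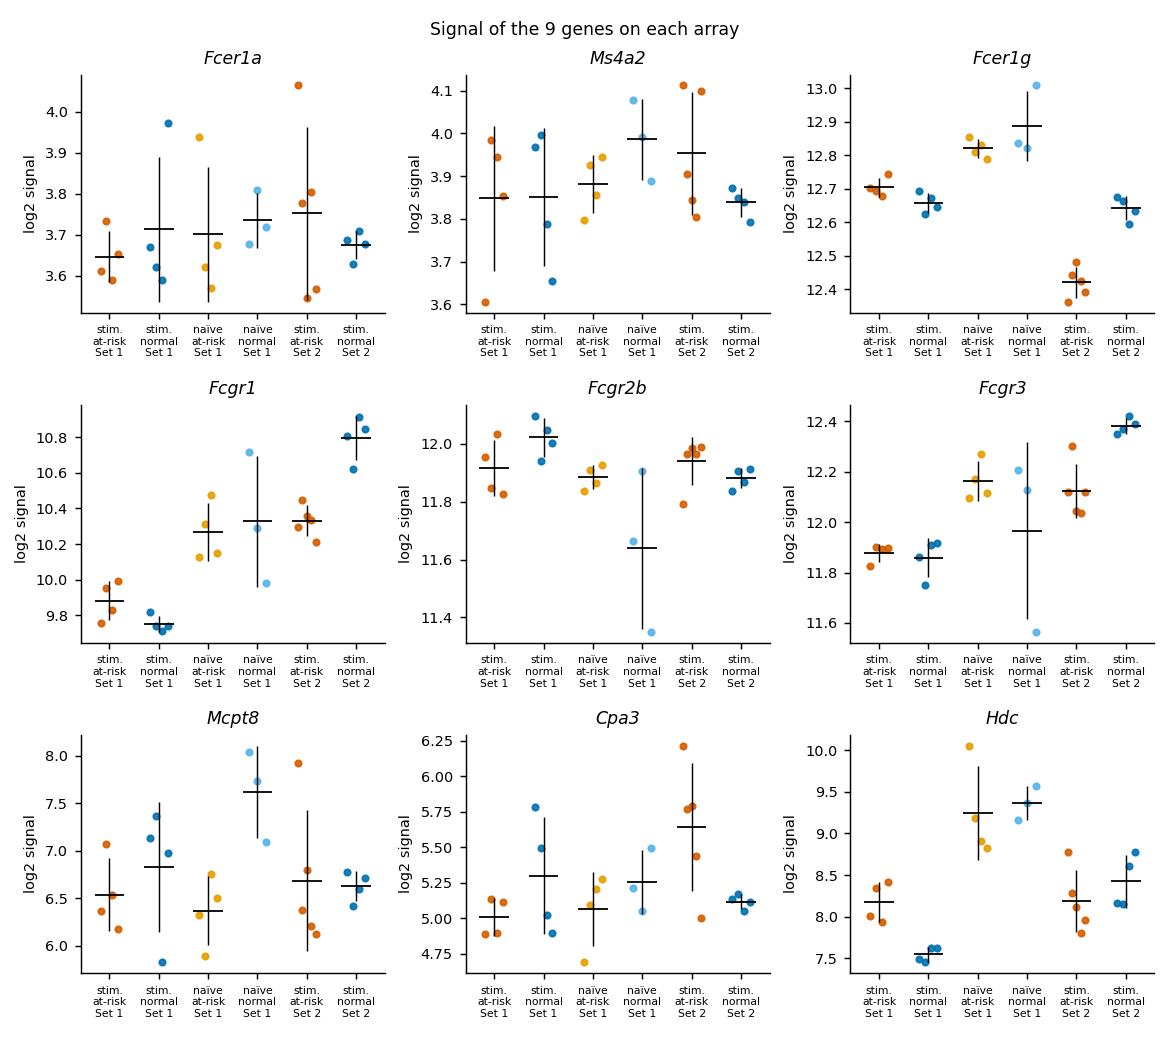
Each point is the log2 signal (vertical axis) of a gene's brightest probe set on 1 array, for the 4 groups of Set 1 and the 2 groups of Set 2, with the group mean as a horizontal line and ± 1 SD as a vertical line. Hdc is lower in both stimulated groups of Set 1 than in the naïve groups, Fcgr1 is lower in stimulated at-risk than in stimulated normal DCs of Set 2, and Fcer1a and Ms4a2 stay at 4.11 or below on every array.

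Sequences upstream of the transcription start are shown for the 3 genes that were called (Hdc, Fcgr1, Fcgr2b) and for 2 mast cell and basophil genes that were not (Ms4a2, Cpa3), so that their letters can be set side by side. They are RefSeq sequences of build GRCm38.p6, 250 bases long, and all lie on the minus strand. The capitals mark AGATAA, the core bound by GATA factors, and GAGGAA, a purine-rich core bound by ETS factors such as PU.1, or the reverse complement of either.
Hdc, chr2:126618679-126618928: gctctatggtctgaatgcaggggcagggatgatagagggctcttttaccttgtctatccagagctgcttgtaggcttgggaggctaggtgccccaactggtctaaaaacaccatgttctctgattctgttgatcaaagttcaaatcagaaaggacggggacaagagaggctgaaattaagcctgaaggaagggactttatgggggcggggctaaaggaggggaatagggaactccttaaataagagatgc
Fcgr1, chr3:96293970-96294219: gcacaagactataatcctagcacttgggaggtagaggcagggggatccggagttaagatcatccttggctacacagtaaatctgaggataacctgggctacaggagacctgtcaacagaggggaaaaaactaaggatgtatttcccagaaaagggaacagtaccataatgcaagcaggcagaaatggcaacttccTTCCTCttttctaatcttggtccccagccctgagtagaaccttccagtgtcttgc
Fcgr2b, chr1:170976072-170976321: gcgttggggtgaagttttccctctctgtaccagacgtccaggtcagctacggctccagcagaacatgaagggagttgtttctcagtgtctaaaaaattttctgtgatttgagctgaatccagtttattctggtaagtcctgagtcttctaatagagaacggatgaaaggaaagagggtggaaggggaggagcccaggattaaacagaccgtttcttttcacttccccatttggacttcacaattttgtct
Ms4a2, chr19:11623720-11623969: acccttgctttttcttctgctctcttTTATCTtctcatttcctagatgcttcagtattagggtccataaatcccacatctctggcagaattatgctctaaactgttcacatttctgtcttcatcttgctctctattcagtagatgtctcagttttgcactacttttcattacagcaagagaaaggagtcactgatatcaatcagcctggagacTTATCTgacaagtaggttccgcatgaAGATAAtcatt
Cpa3, chr3:20242182-20242431: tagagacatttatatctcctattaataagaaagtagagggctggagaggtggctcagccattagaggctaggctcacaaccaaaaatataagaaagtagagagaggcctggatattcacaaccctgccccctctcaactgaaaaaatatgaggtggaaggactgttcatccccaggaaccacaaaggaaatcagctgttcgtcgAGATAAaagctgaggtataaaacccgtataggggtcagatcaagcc
All 9 genes matched the RefSeq table, with 10 windows in all since Fcgr3 had 2. The windows of Hdc, Mcpt8 and Fcgr3 precede transcript starts inside the annotated genes and lie wholly within these genes. Hdc, for example, runs from 126593659 to 126624025 on chromosome 2. The windows of Ms4a2 and Cpa3 lie partly within their genes, and that of Fcer1a overlaps its gene by a few bases. AGATAA or TGATAA was searched on both strands and was found in windows of 3 of the 9 genes, Fcer1a, Ms4a2 and Cpa3, beside 16.6% of all 32851 windows of this length. Ms4a2 had 3 such matches, starting at -224, -37 and -11 relative to the transcription start, and Cpa3 had 1 at -46. The Ms4a2 matches at -37 and -11 lie inside the annotated gene, which reaches to 11623790 while the window starts at 11623720. GAGGAA on both strands was found for 4 genes, Fcer1a, Fcgr1 (at -55), Fcgr3 and Mcpt8, beside 23.3% of all windows. The E-box CANNTG, which reads alike on both strands, was found for 7 genes, all but Ms4a2 and Fcgr3, beside 66.2% of all windows. A match is a description of letters only.

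The first question was what the allergen injection did in pups of each kind of mother, within Set 1. Hdc fell with allergen in both kinds of pups. In normal pups Fcgr1 also fell and Fcgr2b rose, while the IgE receptor chains, Fcgr3 and both granule proteases were not called in either. Of the 13 probe sets, 2 were called in at-risk pups (0 higher and 2 lower), where 7.88% of all probe sets were called (4.42% higher, 3.46% lower). In normal pups 7 were called (4 higher and 3 lower), where 11.5% of all probe sets were called (5.73% higher, 5.76% lower). The median change of the 13 was -0.06 in at-risk and -0.11 in normal pups, beside -0.01 and 0.00 over all probe sets. The probe sets called in normal pups belonged to only 3 genes, and probe sets of 1 gene are not independent.

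The main Hdc probe set, 1454713_s_at, read 8.01, 8.35, 7.94 and 8.41 in stimulated at-risk DCs, against 10.05, 9.19, 8.91 and 8.82 in naïve at-risk DCs. In normal pups it read 7.49, 7.45, 7.62 and 7.62 in stimulated DCs, against 9.16, 9.37 and 9.57 in naïve DCs. No stimulated array reached a naïve one in either kind of pup, and AF80 stood highest among the naïve at-risk arrays. The log2 fold change was -1.06 (SE 0.21, adjusted p = 0.00363) in at-risk pups, 2.09-fold lower, and -1.82 (SE 0.23, adjusted p = 7.97e-05) in normal pups, 3.52-fold lower. Over the arrays left out in turn it ran from -1.20 to -0.79 (without AF80) in at-risk pups and from -1.92 to -1.71 in normal pups, and each of these was called. Tested against the fold of 1.25 itself, the change in normal pups was called and that in at-risk pups was not (adjusted p = 0.0623).

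The second Hdc probe set, 1451796_s_at, gave -1.02 (adjusted p = 0.00536) in at-risk pups and -1.33 (SE 0.23, adjusted p = 0.00116) in normal pups. It correlated with the first at r = 0.94 over 24 arrays after the mean of each set was subtracted, a description of probe sets on the same arrays. By the naming of the array both are sets that can match more than 1 transcript. In Set 1 the group means of the first probe set were 8.18 ± 0.24 in stimulated at-risk (SD, n = 4), 7.55 ± 0.09 in stimulated normal (n = 4), 9.24 ± 0.56 in naïve at-risk (n = 4) and 9.36 ± 0.21 in naïve normal DCs (n = 3). The naïve groups overlapped each other, and every stimulated at-risk array lay above every stimulated normal array.

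The size of the Hdc fall was not shown to differ between the kinds of pups. The difference of the maternal effects, stimulated minus naïve, was 0.75 (SE 0.31, adjusted p = 0.523) for the first probe set and 0.31 (SE 0.31, adjusted p = 0.787) for the second. None of the 13 probe sets was called in this comparison, where 0.0486% of all probe sets were called in limma. An unadjusted p under 0.05 was found for 8.41% of all probe sets and for 5 of the 13. These were the first Hdc probe set and the 4 of Fcgr2b, whose main probe set gave -0.35 (SE 0.14, adjusted p = 0.495).

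Among the IgG receptors, Fcgr1 read 9.76, 9.95, 9.83 and 10.00 in stimulated at-risk DCs, against 10.13, 10.31, 10.48 and 10.15 in naïve at-risk DCs. In normal pups it read 9.82, 9.74, 9.71 and 9.74 in stimulated DCs, against 10.71, 10.29 and 9.98 in naïve DCs. The stimulated arrays lay below the naïve ones in both, and the naïve normal arrays were the most spread. The change was -0.57 (SE 0.13, adjusted p = 0.00937) in normal pups, 1.49-fold lower, and -0.38 (SE 0.12, adjusted p = 0.07) in at-risk pups, which was not called. In normal pups it ran from -0.75 without AF79 to -0.38 without AF76, called each time, but was not called when only the compared groups were fitted (adjusted p = 0.0579). In at-risk pups the same change was called without AF76 (adjusted p = 0.0135) or AF79 (adjusted p = 0.0163), which belong to neither of its groups and enter through the shared spread. It was also called with only the compared groups (adjusted p = 0.0231), with all arrays (adjusted p = 0.032), with median centring (adjusted p = 0.0465) and with array weights (adjusted p = 0.0171), so that in the fit of only the compared groups Fcgr1 was called in at-risk and not in normal pups.

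Fcgr2b, the inhibitory receptor, read 12.10, 11.94, 12.05 and 12.00 in stimulated normal DCs, against 11.66, 11.90 and 11.35 in naïve normal DCs. The stimulated arrays were all higher, but by little over the second naïve array, and the third, AF79, was far below. The log2 fold change was 0.38 (SE 0.10, adjusted p = 0.0191), and the other probe sets 1435476_a_at, 1451941_a_at and 1455332_x_at gave 0.50 (adjusted p = 0.0181), 0.70 (adjusted p = 0.0226) and 0.47 (adjusted p = 0.0137). Without AF79 the main probe set gave 0.24 (adjusted p = 0.0605), and of the 4 only 1451941_a_at was still called, the others falling under the fold or missing the adjusted p. Without AF86 neither 1435476_a_at nor 1451941_a_at was called (adjusted p = 0.0506 and 0.054), and without AF87 1451941_a_at was not (adjusted p = 0.0655). None of the 4 was called when only the compared groups were fitted (adjusted p = 0.102 to 0.139). In at-risk pups the main probe set read 11.96, 11.85, 12.03 and 11.83 in stimulated DCs, against 11.84, 11.91, 11.87 and 11.93 in naïve DCs, which overlapped, with a change of 0.03 (SE 0.09, adjusted p = 0.913). The 4 probe sets correlated with each other at r between 0.81 and 0.97 over 24 arrays, and some may share probes with related transcripts by their names.

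**Figure D2:**
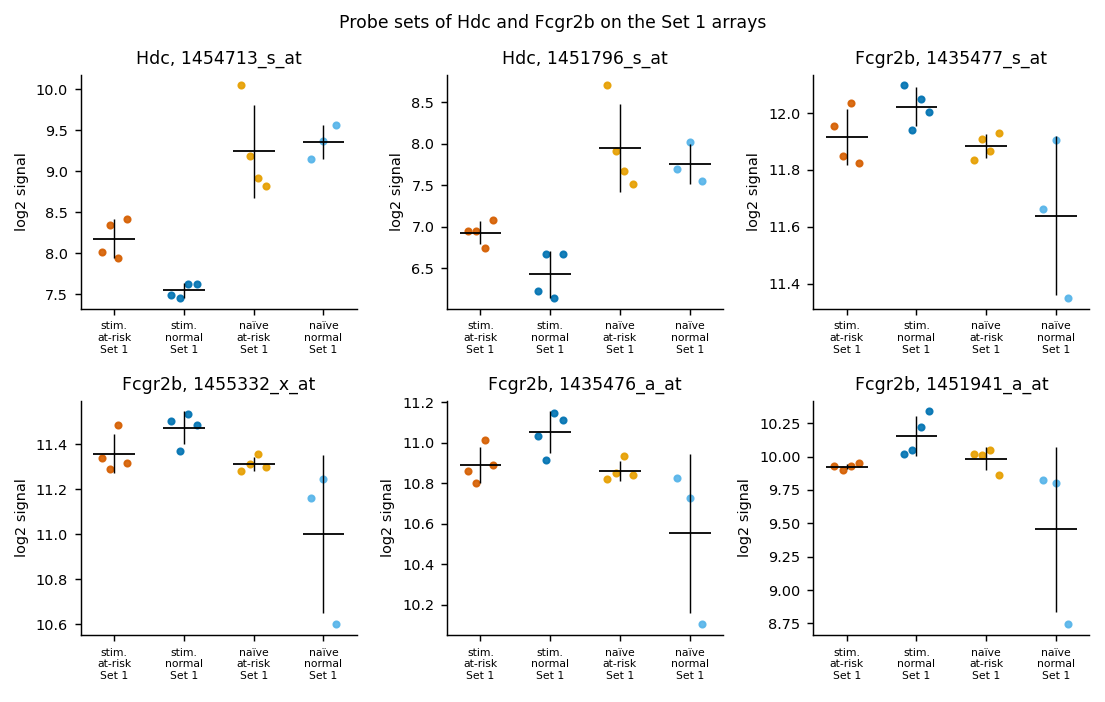
Log2 signal (vertical axis) of the 2 Hdc and the 4 Fcgr2b probe sets on the 15 arrays of Set 1, with group means as horizontal lines and ± 1 SD as vertical lines. Both Hdc probe sets separate stimulated from naïve arrays, and 1 naïve normal array, AF79, is the lowest in all 4 Fcgr2b panels.

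Fcgr3, the other low-affinity IgG receptor of the list, read 11.82, 11.90, 11.89 and 11.90 in stimulated at-risk DCs, against 12.09, 12.17, 12.27 and 12.12 in naïve at-risk DCs. The groups did not overlap, and the change of -0.29 (SE 0.11, adjusted p = 0.13) was not called. In normal pups it read 11.86, 11.75, 11.91 and 11.92 in stimulated DCs, against 12.21, 12.13 and 11.56 in naïve DCs, with AF79 below all stimulated arrays. The change there was -0.11 (SE 0.12, adjusted p = 0.596), running from -0.31 without AF79 (adjusted p = 0.00649, under the fold) to 0.01 without AF76. In at-risk pups the adjusted p ran from 0.00285 to 0.281 over the arrays left out in turn, with changes between -0.31 and -0.25 that stayed under the fold.

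The signalling chain Fcer1g read 12.69, 12.62, 12.67 and 12.65 in stimulated normal DCs, against 12.84, 12.82 and 13.01 in naïve normal DCs. The groups were apart, and the change of -0.23 (SE 0.06) had an adjusted p of 0.0137 but stayed under the fold of 1.25, so it was not called. With arrays left out in turn it ran from -0.26 to -0.17, the latter without AF79, the highest naïve normal array. In at-risk pups it averaged 12.70 ± 0.03 in stimulated DCs and 12.82 ± 0.03 in naïve DCs (SD, n = 4 each), a change of -0.12 (SE 0.05, adjusted p = 0.226), again without overlap. Over all 13 probe sets, stimulated and naïve arrays did not overlap for 5 in at-risk pups, all lower with allergen, beside 17.7% of all probe sets. For normal pups this held for 8, of which 4 were higher and 4 lower, beside 21.9% of all probe sets.

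Fcer1a and Ms4a2 had changes of -0.05 and -0.03 in at-risk pups and of -0.02 and -0.13 in normal pups, with SEs of 0.09 to 0.10 and adjusted p of 0.42 or more. The basophil protease Mcpt8 read 7.13, 7.37, 5.83 and 6.98 in stimulated normal DCs, against 8.03, 7.74 and 7.09 in naïve normal DCs, which overlapped. Its change was -0.79 (SE 0.33, adjusted p = 0.132) there and 0.17 (SE 0.31, adjusted p = 0.839) in at-risk pups. Cpa3 gave -0.06 (SE 0.18, adjusted p = 0.916) in at-risk pups and 0.05 (SE 0.19, adjusted p = 0.906) in normal pups.

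**Figure D3:**
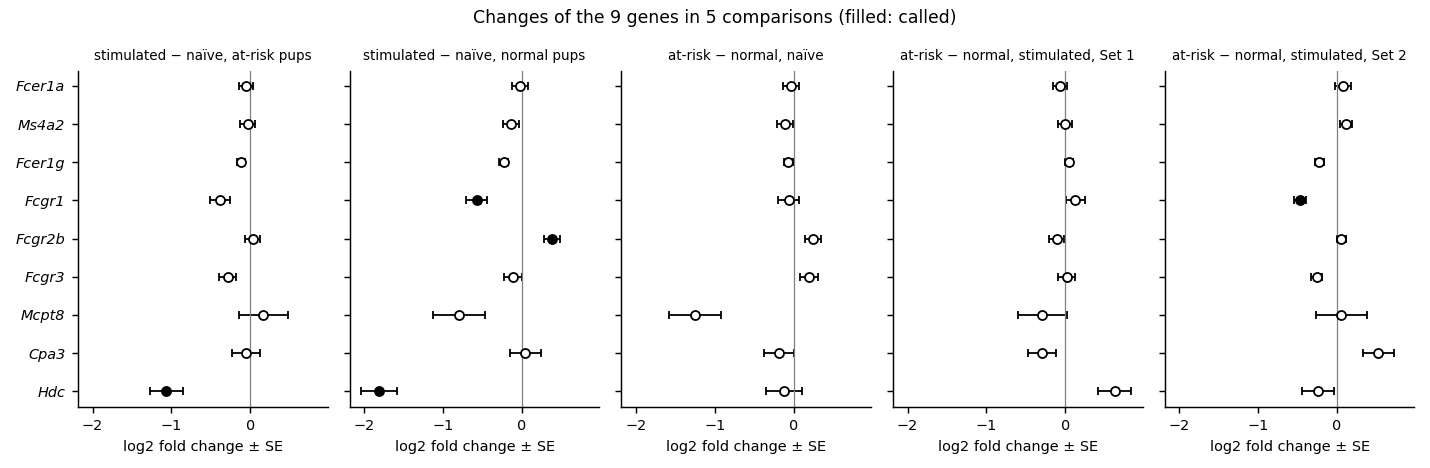
Log2 fold change (horizontal axis) of the 9 genes, by their brightest probe sets, in 5 comparisons, with bars of ± 1 SE, where filled points were called. Hdc is called in both allergen comparisons, Fcgr1 and Fcgr2b in that of normal pups, and Fcgr1 alone in a maternal comparison, that of Set 2.

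The next comparison asked whether naïve DCs of at-risk pups differed from those of normal pups. None of the 13 probe sets was called in limma, where 0.34% of all probe sets were called (0.102% higher, 0.239% lower). An unadjusted p under 0.05 was found for 15.8% of all probe sets and for 5 of the 13. The naïve arrays here are the same that served as the base of the allergen comparisons, so that a low naïve value enters both.

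Mcpt8 was the member with the smallest adjusted p. It read 6.32, 5.89, 6.76 and 6.50 in naïve at-risk DCs, against 8.03, 7.74 and 7.09 in naïve normal DCs. All at-risk arrays lay below all normal ones, beside 11.1% of all probe sets whose groups did not overlap in either direction. The change was -1.25 (SE 0.33, adjusted p = 0.117), 2.38-fold, and its adjusted p ran from 0.0554 to 0.27 over the arrays left out in turn, so that it was never called. Cpa3, found in granules of the same cells, gave -0.19 (SE 0.19, adjusted p = 0.665), and the IgE receptor chains Fcer1a and Ms4a2 gave -0.03 and -0.10 (SE 0.10 each).

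The other 4 probe sets with a small unadjusted p were those of Fcgr2b. The main one averaged 11.88 ± 0.04 in naïve at-risk DCs (SD, n = 4) and 11.64 ± 0.28 in naïve normal DCs (n = 3), a change of 0.25 (SE 0.10, adjusted p = 0.268) that was 0.10 without AF79. Of the 4, 1451941_a_at and 1455332_x_at had no overlap between the groups. Fcgr3 gave 0.20 (SE 0.12, adjusted p = 0.424) and, without AF79, -0.0051. Fcgr1 gave -0.06 (SE 0.13), Fcer1g -0.07 (SE 0.06) and Hdc -0.12 (SE 0.23), with adjusted p of 0.58 or more. The second Hdc probe set had the opposite sign, at 0.19 (SE 0.23, adjusted p = 0.709).

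The maternal comparison was then made among stimulated pups, over both sets with set as a term. None of the 13 probe sets was called in limma, where 1.73% of all probe sets were called (1.31% higher, 0.415% lower). An unadjusted p under 0.05 was found for 17% of all probe sets and for 3 of the 13, Fcer1g, Fcgr1 and Fcgr3. Their changes were -0.09 (SE 0.04, adjusted p = 0.289), -0.18 (SE 0.09, adjusted p = 0.291) and -0.13 (SE 0.05, adjusted p = 0.228). The sets gave different values for several members, and are therefore set out separately.

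In Set 2 Fcgr1 was lower in stimulated at-risk DCs. It read 10.29, 10.45, 10.36, 10.34 and 10.21 there, against 10.81, 10.62, 10.91 and 10.84 in stimulated normal DCs. All 5 at-risk arrays lay below all 4 normal ones. The change was -0.47 (SE 0.08, adjusted p = 0.00692), 1.38-fold lower, and Fcgr1 was the only 1 of 13 called in Set 2, where 4.62% of all probe sets were called (2.58% higher, 2.04% lower).

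In Set 1 Fcgr1 averaged 9.88 ± 0.11 in stimulated at-risk DCs and 9.75 ± 0.05 in stimulated normal DCs (SD, n = 4 each), a change of 0.13 (SE 0.12, adjusted p = 0.932). The maternal effect in Set 2 minus that in Set 1 was -0.60 (SE 0.10, adjusted p = 0.00589), and it ran from -0.66 to -0.56 over the arrays left out in turn, called each time. It was not called when the fold of 1.25 was itself tested (adjusted p = 0.721). Between the sets 2 of 13 probe sets were called, both lower, where 1.79% of all probe sets were called (0.659% higher, 1.13% lower). The sets also differ in amplification and preprocessing, and these cannot be told apart from any other difference between them.

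Fcgr3 and Fcer1g had the same order in Set 2 without a call. Fcgr3 read 12.12, 12.30, 12.04, 12.04 and 12.12 in stimulated at-risk DCs, against 12.35, 12.37, 12.42 and 12.39 in stimulated normal DCs, a change of -0.26 (SE 0.07, adjusted p = 0.0578). Fcer1g averaged 12.42 ± 0.05 in stimulated at-risk DCs (SD, n = 5) and 12.64 ± 0.04 in stimulated normal DCs (n = 4). Its change of -0.22 (SE 0.05, adjusted p = 0.0441) was under the fold of 1.25. In Set 1 their changes were 0.02 (SE 0.11) and 0.05 (SE 0.05). For Fcer1g the difference between the sets was -0.27 (SE 0.06, adjusted p = 0.0409), also under the fold. In Set 2 the arrays of the maternal groups did not overlap for 3 of the 13 probe sets, Fcgr1, Fcgr3 and Fcer1g, all lower in at-risk pups, beside 10.1% of all probe sets.

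Hdc was not called in either set, and its values had opposite signs. In Set 1 the arrays of its first probe set, given above, gave 0.63 for stimulated at-risk minus stimulated normal DCs (SE 0.21, adjusted p = 0.406). In Set 2 it read 8.77, 8.29, 8.12, 7.80 and 7.97 in stimulated at-risk DCs, against 8.17, 8.15, 8.61 and 8.78 in stimulated normal DCs, which overlapped, with a change of -0.24 (SE 0.20, adjusted p = 0.503). The second probe set gave 0.50 in Set 1 (SE 0.21, adjusted p = 0.594) and -0.43 in Set 2 (SE 0.16, adjusted p = 0.167). The difference between the sets was -0.93 (SE 0.23, adjusted p = 0.046) for the second probe set, which was called, and -0.87 (adjusted p = 0.0961) for the first, which was not. The call on the second probe set was lost without any of 13 of the 17 arrays (adjusted p = 0.0555 to 0.11), and that on the first was made without AF123 (-1.02, adjusted p = 0.0209). In Set 1 alone none of the 13 probe sets was called, where 0.0707% of all probe sets were called. The 2 of Hdc were those with an unadjusted p under 0.05, beside 7.31% of all probe sets. Groups did not overlap in Set 1 for 3 of the 13, the 2 of Hdc (higher) and Fcgr2b 1451941_a_at (lower), beside 6.23% of all probe sets.

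Cpa3 read 6.21, 5.77, 5.79, 5.44 and 5.00 in stimulated at-risk DCs of Set 2, against 5.13, 5.17, 5.05 and 5.11 in stimulated normal DCs. The at-risk arrays ran higher except 1, AF127, and the change of 0.53 (SE 0.20, adjusted p = 0.166) was not called. In Set 1 it was -0.29 (SE 0.18, adjusted p = 0.826). Mcpt8 gave 0.06 in Set 2 (SE 0.32, adjusted p = 0.931), where AF123 read 7.92 and the other at-risk arrays between 6.12 and 6.80. Fcer1a and Ms4a2 gave 0.08 (SE 0.10) and 0.11 (SE 0.08) in Set 2, and the main Fcgr2b probe set 0.06 (SE 0.06).

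The further genes of these pathways were described with the same fits, by the brightest probe set of each gene. Of 9 other Fc receptors and antibody-binding proteins measured, Fcgr4 fell in at-risk pups with allergen (-0.46, SE 0.08, adjusted p = 0.00223). It is an activating IgG receptor of mouse myeloid cells that signals through Fcer1g. Fcgr4 was not called in normal pups, between 11.13 and 11.20 in stimulated and between 11.29 and 11.60 in naïve DCs. Nor was it called in Set 2, between 9.05 and 10.90 in stimulated at-risk and between 10.80 and 11.44 in stimulated normal DCs. Pigr, the transporter of polymeric immunoglobulin, rose with allergen by 0.47 (adjusted p = 0.00481) in at-risk and by 0.58 (adjusted p = 0.00154) in normal pups. Fcer2a, the low-affinity IgE receptor CD23 of B cells, was higher in stimulated at-risk DCs over both sets by 0.53 (SE 0.10, adjusted p = 0.0112). It was called in Set 2 (0.83, SE 0.11, adjusted p = 0.00294), and the difference between the sets was 0.62 (adjusted p = 0.0259). Of 10 B cell markers, 3 were higher in Set 2 too (median 0.31), where 4.62% of all probe sets were called. The mean signal of the 10 lay between 11.26 and 11.38 in stimulated at-risk and between 10.95 and 11.01 in stimulated normal DCs. The part of B cells in the Fcer2a difference was not tested. The median change of the 9 genes was -0.01 with allergen in at-risk pups and -0.05 in normal pups. Over all probe sets 7.88% were called with allergen in at-risk and 11.5% in normal pups. The shares were 1.73% for maternal status over both sets, 4.62% in Set 2 and 1.79% for the difference between the sets. No gene of this list was called in naïve pups, nor of the pathway lists that come next.

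Of 20 genes of Fc receptor signalling, none was called with allergen in at-risk pups and 3 were called in normal pups, where 7.88% and 11.5% of all probe sets were called. The counts of this list and of the histamine and granule list are few, and nothing particular to either is read from them. In normal pups the adaptor Lat fell (-0.94, SE 0.22, adjusted p = 0.00909), while the adaptor Lat2 rose by 0.49 (adjusted p = 0.0296) and the calcium channel Orai1 by 0.35 (adjusted p = 0.0301). Lat is also a T cell gene, and 10 of 10 T cell markers measured were called lower in the same comparison, so that its part in that fall was not tested. The median change of the 20 was -0.08 in at-risk and -0.07 in normal pups. The Src family kinases Fyn and Fgr were lower in stimulated at-risk DCs of Set 2, with changes of -0.38 (adjusted p = 0.0111) and -0.42 (adjusted p = 0.0151). They were the only 2 of the 20 called there, where 4.62% of all probe sets were called. Of 12 genes of the histamine and granule pathway, none was called with allergen in at-risk pups (median -0.04) and 1 in normal pups (median -0.13), where Ndst2, which sulphates the heparin of granules, rose by 0.49 (SE 0.07, adjusted p = 0.000362). Serpinb1a, a protease inhibitor, was higher in stimulated at-risk DCs over both sets by 0.41 (SE 0.05, adjusted p = 0.00135). It was the only 1 of the 12 called there, where 1.73% of all probe sets were called. Hpgds, the prostaglandin D2 synthase, was lower in stimulated at-risk DCs of Set 2 (-0.66, SE 0.13, adjusted p = 0.0163). Serpinb1a was called higher there (0.43), and no other of the 12 was called, where 4.62% of all probe sets were called.

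Mast cell and basophil markers outside the list were called in both directions. With allergen, 7.88% of all probe sets were called in at-risk and 11.5% in normal pups. Of 12 mast cell markers, 2 rose and 2 fell with allergen in at-risk pups, with a median change of -0.02. Ctsg rose (2.02, SE 0.23, adjusted p = 3.2e-05) and Cma1, the chymase, fell (-0.98, SE 0.12, adjusted p = 8.66e-05), and beside them Gata2 rose by 0.84 and Mcpt1 fell (-0.38). In normal pups 1 rose, Ctsg (0.79, adjusted p = 0.0431), and 1 fell, Cma1 (-0.84, adjusted p = 0.000552), with a median of 0.08. Cma1 was dim in Set 1. Its group medians were 5.08 in stimulated and 6.07 in naïve at-risk DCs, and 5.24 in stimulated and 6.09 in naïve normal DCs. The stimulated medians lay near the lower quartile of the arrays and the naïve ones above it. Whether Cma1 was detected above background could not be judged. Of 14 basophil markers, 2 rose and 1 fell in at-risk pups and 2 rose and 3 fell in normal pups, with medians of -0.17 and -0.16. Gata1 rose by 2.66 (SE 0.20, adjusted p = 6.22e-07) in at-risk and by 1.86 (SE 0.21, adjusted p = 3.59e-05) in normal pups, and Il18r1, a receptor chain for IL-18, fell (-0.88 in at-risk and -1.02 in normal pups). Gata1 is also a factor of erythroid cells and platelet precursors, and Ctsg a granule protease of neutrophil precursors. Which cells carried the changes of Gata1, Ctsg and Il18r1 was not tested. The mean signal of the basophil list lay between 8.04 and 8.12 in stimulated at-risk and between 7.99 and 8.10 in naïve at-risk DCs, and between 8.01 and 8.14 in stimulated normal and between 8.04 and 8.21 in naïve normal DCs. These means pool members with changes of opposite sign, and the part of basophils in the fall of Hdc was not tested. In stimulated pups over both sets Gata1 was higher (1.02) and Il18r1 lower (-0.65) in at-risk DCs, where 1.73% of all probe sets were called. In Set 2 Gata1 (1.56) and Gata2 (0.65) were higher, and Il18r1 (-0.96) and Itgam (-0.63) lower, where 4.62% were called. The mast cell list averaged 5.93 to 6.60 on stimulated at-risk and 5.94 to 6.01 on stimulated normal arrays there. Neither list had a call in the maternal comparisons of naïve pups or of Set 1 alone.

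Markers of other cells moved with allergen beside Hdc and Fcgr1. The shares of all probe sets called with allergen were 7.88% in at-risk and 11.5% in normal pups. Of 15 macrophage and monocyte markers, 5 fell in at-risk (median -0.20) and 7 in normal pups (median -0.42), and 0 rose. Their mean signal lay between 11.24 and 11.34 in stimulated at-risk and between 11.51 and 11.66 in naïve at-risk DCs, and between 11.19 and 11.30 in stimulated normal and between 11.54 and 11.75 in naïve normal DCs. Of 10 NK cell markers, 7 fell in at-risk and 6 in normal pups, with means between 8.92 and 9.05 in stimulated at-risk and between 9.60 and 9.77 in naïve at-risk DCs, and between 8.61 and 9.44 in stimulated normal and between 9.72 and 9.85 in naïve normal DCs. Platelet markers ran the other way, and 10 of 10 rose in at-risk and 9 in normal pups, with means between 9.36 and 10.27 in stimulated at-risk and between 6.03 and 6.36 in naïve at-risk DCs, and between 9.24 and 9.68 in stimulated normal and between 6.07 and 6.22 in naïve normal DCs. Of 10 T cell markers, 9 fell in at-risk (median -0.94) and 10 in normal pups (median -1.08). Of 11 erythroid markers, 8 rose in at-risk (median 1.15) and 8 in normal pups (median 0.88). Of 10 endothelial markers, 6 rose and 1 fell in at-risk pups, and 2 rose and 1 fell in normal pups. Of 11 neutrophil markers, 4 rose and 0 fell in at-risk pups, and 2 rose and 5 fell in normal pups. Their means lay between 10.70 and 11.27 in stimulated at-risk and between 10.32 and 10.64 in naïve at-risk DCs, and between 10.15 and 10.47 in stimulated normal and between 10.35 and 10.71 in naïve normal DCs. In Set 2, where Fcgr1 was lower, 5 of 15 macrophage markers were lower too, with means between 11.20 and 11.43 in stimulated at-risk and between 11.62 and 11.72 in stimulated normal DCs. Over all probe sets 4.62% were called in this maternal comparison (2.58% higher, 2.04% lower). In the same comparison 7 of 10 NK cell markers (median -0.78) and 7 of 10 T cell markers (median -0.68) were lower, and 9 of 10 platelet (median 2.04), 5 of 10 endothelial (median 0.49), 3 of 11 erythroid and 3 of 10 B cell markers were higher. NK cell means lay between 8.40 and 8.78 in stimulated at-risk and between 9.24 and 9.29 in stimulated normal DCs, and T cell means between 8.52 and 9.02 in stimulated at-risk and between 9.32 and 9.37 in stimulated normal DCs. Platelet markers there lay between 7.95 and 9.26 in stimulated at-risk and between 6.57 and 6.82 in stimulated normal DCs. The part of these cells in the changes of Hdc, Fcgr1 and Fcgr2b was not tested.

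**Figure D4:**
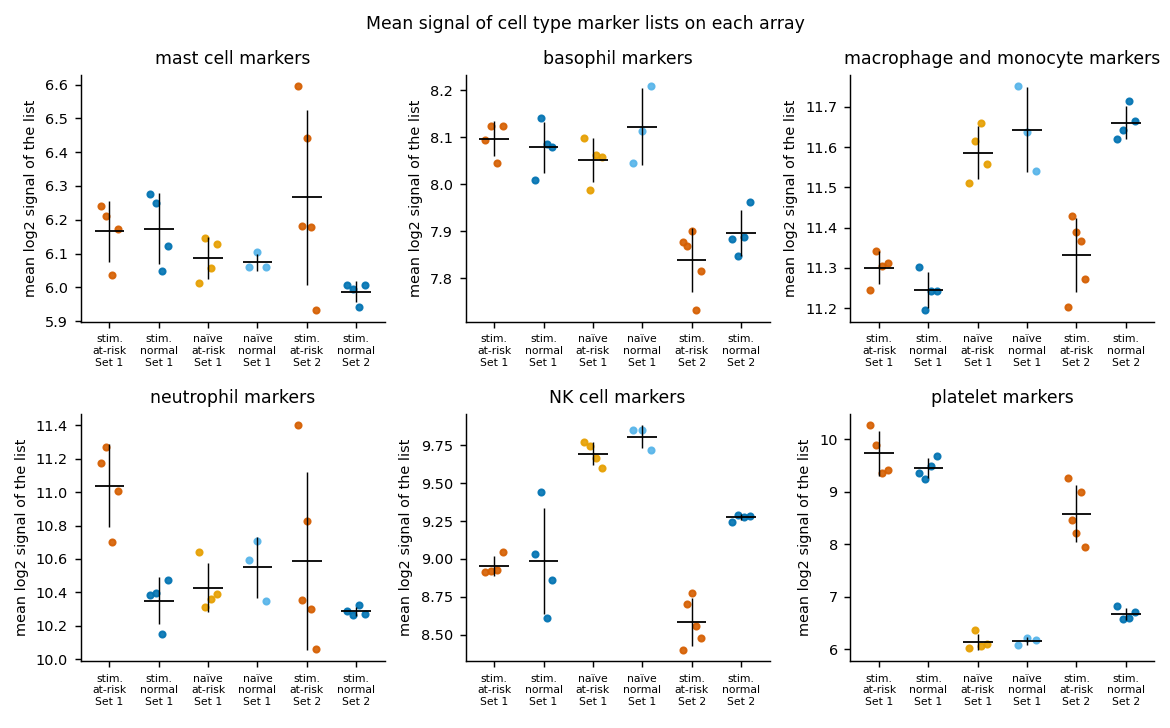
Mean log2 signal (vertical axis) of 6 lists of cell type markers on each array, by group, with group means as horizontal lines and ± 1 SD as vertical lines. Macrophage and NK cell lists are lower and the platelet list is higher in stimulated than in naïve DCs of Set 1, and the mast cell and basophil lists overlap.

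For each member the genes whose signal ran most alike over the 24 arrays, after the mean of each set was subtracted, were sought among 12384 others. The arrays fall into groups and are not independent draws, so that r describes these arrays only. Fcgr1 ran with the complement gene C1qc (r = 0.95), with Tspan4 (0.93) and with Nr1h3 (0.93), and with the group means subtracted Nr1h3 stayed at 0.92 and C1qc at 0.85. Hdc ran with the decoy receptor Il1r2 (0.94), Casp4 (0.93) and Ubd (0.93), which came to 0.71, 0.74 and 0.64 within groups. Fcgr2b ran with Tnip2 (0.91), Cd1d1 (0.91) and Dpp4 (0.90), Fcgr3 with Tgm1 (0.92), Myo10 (0.89) and Sdc3 (0.88), and Fcer1g with Ccl3 (0.93), Slpi (0.93) and Prss29 (0.92). For the dim members no gene exceeded 0.72, the value of Shmt2 with Cpa3 and of Mpnd with Ms4a2, while Traf4 came to 0.71 with Mcpt8 and Zdhhc3 to 0.66 with Fcer1a. Between members, Fcgr1 and Fcgr3 correlated at 0.81 and at 0.75 within groups, and Mcpt8 and Cpa3 at 0.49 and at 0.54. Fcer1g and Fcgr1 correlated at 0.71 over the groups and at -0.36 within them, and Hdc with Mcpt8 at 0.17 and with Cpa3 at -0.10.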

How the data were processed

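The authors deposited RMA intensity values, linear and 1 per probe set, and the RMA version was not stated in the labels or methods. By the methods each set was preprocessed on its own with a RefSeq-based definition, while the deposited table holds Affymetrix probe sets. The set of each array came from its number in the labels and the set sizes in the methods, which also mention 1 excluded array per set. Log2 was taken with no pseudocount, 64 control probe sets were left out, and 22626 were tested. In the platform annotation 20380 of these had 1 symbol, 691 several and 1555 none.

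limma 3.58.1 (R 4.3.3) fitted 1 mean per group on the 15 arrays of Set 1, or 17 stimulated arrays with set as a term, or with its interaction with maternal status for the difference between sets. Other steps ran in Python 3.11.15 (pandas 2.3.3, numpy 2.4.6) with matplotlib 3.10.9 for plotting. The fits were tested on simulated data. The Benjamini-Hochberg adjustment ran over all probe sets, and a call needed 0.05 or less and a fold of at least 1.25. The members and lists were chosen with earlier results of these data known. Named were all members, at most 4 called genes per list and comparison by smallest adjusted p, and the 3 genes most alike each member. A gene was represented by its brightest probe set. The alternatives tried are in the closing section.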

Additional observations from a re-analysis of the deposited data

Results flagged for a closer look

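For each of the 13 probe sets in the 5 groups of 4 or 5 arrays, the array farthest from the rest was compared with the range of its group, which gave 3 distant arrays among 65 such pairs. Chance alone sets apart about 1 in 20 groups. In stimulated at-risk DCs of Set 2, AF123 was the lowest for Fcgr2b on 1435477_s_at, at 11.79 where the other arrays read 11.96 to 11.99, and on 1435476_a_at, at 10.61 where the others read 10.89 to 10.97. In stimulated at-risk DCs of Set 1, AF88 was the lowest for Fcgr3, at 11.82 where the others read 11.89 to 11.90.

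The maternal effect among stimulated pups differed between Set 2 and Set 1 for 3 probe sets by the interaction test in limma. The difference was -0.60 for Fcgr1 (adjusted p = 0.00589), -0.27 for Fcer1g (adjusted p = 0.0409) and -0.93 for Hdc on 1451796_s_at (adjusted p = 0.046). All 3 effects were lower in Set 2, and set, amplification and preprocessing cannot be told apart.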

How the results depend on the processing

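Without any array left out, 603 values of the 9 genes were set against those of their brightest probe sets (other probe sets of Hdc and Fcgr2b counting as alternatives). Of these, 583 kept their side of the threshold without a counted reversal, 9 gained a call, 7 lost one and 4 reversed. The other probe sets entered with the reported settings only, and every changed setting was counted on the brightest ones. In stimulated pups the maternal change reversed in Set 1 alone for Fcer1g (0.046), Fcgr1 (0.13) and Fcgr3 (0.019) and in Set 2 alone for Hdc (-0.24). Leaving out arrays turned the naïve maternal change of Fcgr3 (range -0.0051 to 0.32) and the difference of maternal effects, stimulated minus naïve, for Fcgr1 (-0.0021 to 0.37) and Fcgr3 (-0.30 to 0.024). Where the reported change was itself smaller than its SE and not called, a turned sign without a call was not counted as reversed. This held for Fcgr3 with allergen in normal pups when arrays were left out. It also held for the maternal change of Cpa3 in stimulated pups, which was 0.14 over both sets and -0.29 in Set 1 alone.

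The calls among all 13 probe sets changed as follows. For allergen in at-risk pups the 2 calls became 0 with treat, the test of the fold itself, 1 with one probe set per gene and 3 with all arrays, only compared groups, median centring or array weights, and ran from 2 to 3 with arrays left out. For allergen in normal pups the 7 calls became 2 with only compared groups, 2 with treat, 4 with array weights, 3 with one probe set per gene and 8 with no fold threshold, and ran from 4 (without AF79) to 7. For stimulated maternal status the 0 calls became 1 in Set 2 alone. For the difference between sets the 2 calls became 1 with all arrays, 0 with treat, 4 with array weights, 1 with one probe set per gene and 3 with no fold threshold, and ran from 1 to 4. Other settings without an array left out kept these counts.

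The share of probe sets called moved too, given where the count or the share moved by over 1.5 times. For naïve maternal status (0.34%) it was 0.552% with all arrays, 0.053% with only compared groups, 0.0221% with treat and 0.347% with one probe set per gene, and ran from 0.194% to 1.19% (without AF77). For stimulated maternal status (1.73%) it was 2.93% with all arrays, 1.66% with the filter, 2.82% with one probe set per gene, 0% with treat, 0.535% with no set term, 0.0707% in Set 1 and 4.62% in Set 2, and ran from 0.614% (without AF119) to 2.55%. For allergen it was 2.26% with treat and 8.52% with one probe set per gene in at-risk pups (7.88%, range 6.44% to 9.17%), and 2.56% and 12.0% in normal pups (11.5%, range 9.32% to 13.7%). For the difference of maternal effects (0.0486%) it was 0.084% with median centring, 0.147% with the filter, 0% with treat, 0.0928% with trend and robust, 0.186% with array weights and 0.169% with one probe set per gene, and ran from 0.00442% to 0.133%. For the difference between sets (1.79%) it was 0.128% with treat, 2.89% with the filter, 2.75% with one probe set per gene and 10.8% with array weights, and ran from 0.902% to 4.37%. Shares under one probe set per gene and the filter are of fewer probe sets, and the cause of the other moves was not tested.

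The filter on dim probe sets left out Fcer1a, Ms4a2, Mcpt8 and Cpa3, which then have no value. No paired analysis was possible because the labels give the groups no shared replicate numbers. Detection above background could not be judged from these values.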
